A study of Mus musculus with 10 samples.

Results

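Basophil and mast cell genes were followed on 10 microarrays of RNA from mouse bone marrow neutrophils. The set has 9 members of 19938 genes with a single-gene probe set: the granule proteases Mcpt8, Cpa3 and Prss34, the histamine-forming enzyme Hdc, the surface receptors Ms4a2, Fcer1a, Kit and Cd200r3, and the transcription factor Gata2. They were chosen by name as genes of basophils and mast cells, with their fMLP difference already seen in these arrays. The difference between fMLP and unstimulated arrays is therefore given below as a description with no test, while the genotype comparisons, which played no part in the choice, were tested.

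All cells came from C57bl/6 mice labelled female and 10 weeks old. Cells of tibia and femur were freed of red cells and recovered at the interface of 62% and 81% Percoll, a density gradient that enriches neutrophils and does not sort them. The 4 groups were Lcn2 knockout cells after fMLP (2 arrays), wild type cells after fMLP (2 arrays), unstimulated Lcn2 knockout cells (3 arrays) and unstimulated wild type cells (3 arrays). Lcn2 encodes lipocalin 2, a granule protein of neutrophils that binds bacterial iron carriers, and fMLP is a formylated peptide of the bacterial kind that attracts and activates neutrophils. Stimulated cells received 10 micromolar fMLP for 20 minutes at 37 degrees Celsius. The labels do not say whether unstimulated cells were also warmed, nor whether replicates were separate animals, so p-values measure the spread between these samples, which may be technical. The question of the design was what loss of lipocalin 2 changes in resting and in stimulated neutrophils.

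Basophils and mast cells arise in or from the bone marrow and share a secretory program. Both display the high-affinity IgE receptor, store proteases bound to proteoglycan in granules and make histamine from histidine. In the mouse, Mcpt8 and Prss34 are proteases of basophils more than of mature mast cells, Cpa3 belongs to both, and Kit, the receptor for stem cell factor, marks mast cells and early progenitors. Basophils are a rare cell of the marrow, and their RNA is a minor admixture in a neutrophil preparation. Whether a lower signal in such a bulk sample stands for fewer cells of a type or for less RNA per cell cannot be told apart.

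The promoters of the 3 granule proteases and of Hdc, the members whose values the results turn on, are shown because GATA factors and RUNX factors act in this lineage. Each runs 5′ to 3′ on the gene's strand from 250 bases before to 50 bases after the start that the RefSeq table gives (GRCm38.p6), which for Mcpt8, Cpa3 and Hdc lies inside the annotated gene. Capitals mark the letters GATAA (or TTATC on the other strand) and TGTGGT (or ACCACA on the other strand). The windows are chr14:56085148-56085447 on the minus strand for Mcpt8, chr3:20242132-20242431 on the minus strand for Cpa3, chr17:25298144-25298443 on the plus strand for Prss34 and chr2:126618629-126618928 on the minus strand for Hdc.
Mcpt8: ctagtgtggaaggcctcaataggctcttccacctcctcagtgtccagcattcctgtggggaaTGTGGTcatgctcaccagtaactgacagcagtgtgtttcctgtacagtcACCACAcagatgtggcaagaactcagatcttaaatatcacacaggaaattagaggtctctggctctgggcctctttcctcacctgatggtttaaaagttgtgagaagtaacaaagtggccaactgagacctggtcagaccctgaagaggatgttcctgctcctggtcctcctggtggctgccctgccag
Cpa3: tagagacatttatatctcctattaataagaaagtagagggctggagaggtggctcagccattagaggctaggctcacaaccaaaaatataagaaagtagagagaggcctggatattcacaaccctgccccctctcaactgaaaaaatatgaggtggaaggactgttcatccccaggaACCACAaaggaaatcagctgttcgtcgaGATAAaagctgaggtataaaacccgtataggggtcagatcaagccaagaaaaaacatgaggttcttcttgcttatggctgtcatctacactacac
Prss34: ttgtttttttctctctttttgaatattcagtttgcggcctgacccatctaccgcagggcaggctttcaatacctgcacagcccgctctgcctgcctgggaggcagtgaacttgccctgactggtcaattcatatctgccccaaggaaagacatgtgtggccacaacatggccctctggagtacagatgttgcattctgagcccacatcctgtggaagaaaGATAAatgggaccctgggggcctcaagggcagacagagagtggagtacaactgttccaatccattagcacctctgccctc
Hdc: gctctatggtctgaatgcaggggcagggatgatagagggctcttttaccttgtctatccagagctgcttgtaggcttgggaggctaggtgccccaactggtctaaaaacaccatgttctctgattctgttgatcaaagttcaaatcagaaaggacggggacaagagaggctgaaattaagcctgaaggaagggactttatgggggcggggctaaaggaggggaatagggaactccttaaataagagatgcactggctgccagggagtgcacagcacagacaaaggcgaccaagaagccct

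In the Cpa3 window a GATAA match begins 45 bases before the start and an ACCACA match 73 bases before it. The Prss34 window holds a GATAA match 30 bases before the start, and the Mcpt8 window holds 2 RUNX-type matches, 188 and 139 bases before it. Neither set of letters occurs in the Hdc window. Over all members, 5 of 11 windows held the GATA letters, against 25.4% of 32851 windows of the same length. The RUNX letters were in 3 of 11, against 16.8%. The 2 motifs overlapped in 0 member windows. These matches describe the letters only.

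Each member has 1 probe set on the array, and all 9 were matched to RefSeq. In GRCm38.p6 the genes lie at chr14:56082163-56085499 (Mcpt8), chr3:20215616-20242209 (Cpa3), chr17:25298394-25300168 (Prss34), chr2:126593659-126624025 (Hdc), chr1:173221269-173227232 (Fcer1a), chr19:11615517-11623790 (Ms4a2), chr5:75574987-75656722 (Kit), chr16:44943596-45058365 (Cd200r3) and chr6:88193891-88207032 (Gata2). Signals are deposited RMA values taken as log2, where RMA subtracts background, aligns the distributions of arrays and summarises the probes of a probe set. A signal is compared only with the same probe set on other arrays. A test was run only on genes that exceeded 8.18, the median log2 signal of the whole table, in 2 or more samples, which 14070 genes did. Among the members, 6 passed. Ms4a2, Fcer1a and Cd200r3 lay below that median on all 10 arrays, and Cpa3 passed only through the 2 unstimulated replicate 3 arrays.

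The interquartile range of the log2 values split the arrays. It was 1.64 to 1.68 on unstimulated replicates 1 and 2 (array set 1) and 2.47 to 2.59 on the 4 fMLP arrays and unstimulated replicate 3 (array set 2). Arrays of set 1 correlated at 0.977 to 0.988 with each other, those of set 2 at 0.935 to 0.996, and arrays of different sets at 0.750 to 0.813. Signals are therefore compared first within set 2, and set 1 is brought in through the percentile of a probe set among all 35556 probe sets of its array. The library labelled fMLP knockout replicate 2 stands apart: Snap25, a synaptic protein, read 13.43 there and 7.36 to 8.78 elsewhere. The Y-linked gene Eif2s3y read 9.59 and 9.83 on the 2 unstimulated replicate 3 arrays, against the female label, and 5.36 to 7.22 on the others. Xist, transcribed from the inactive X chromosome, read 9.83 to 11.12 on the fMLP arrays and 6.88 to 7.82 on the unstimulated ones, so the only unstimulated arrays of set 2 also differ from the fMLP arrays in sex-linked signal. Lcn2 followed the labels, with 8.42 and 9.60 in fMLP knockout, 14.13 and 14.16 in fMLP wild type, 8.09 to 9.20 in unstimulated knockout and 13.88 to 14.02 in unstimulated wild type samples. The 12 neutrophil markers checked had a median percentile of 98.8 to 99.7 on every array.

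The 2 proteases Mcpt8 and Cpa3 were the members furthest below the unstimulated replicate 3 arrays after fMLP, by -1.64 and -1.57 on the log2 scale, and Prss34 was lower by less. Fcer1a, the IgE-binding chain, was lower too. Kit and Ms4a2 were lower by smaller amounts, Gata2 and Cd200r3 overlapped, and Hdc was as high or higher on 3 of the 4 fMLP arrays. Against unstimulated replicates 1 and 2 the picture was another: Cpa3, Ms4a2, Kit and Hdc ranked higher within all 4 fMLP arrays.

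**Figure D1:**
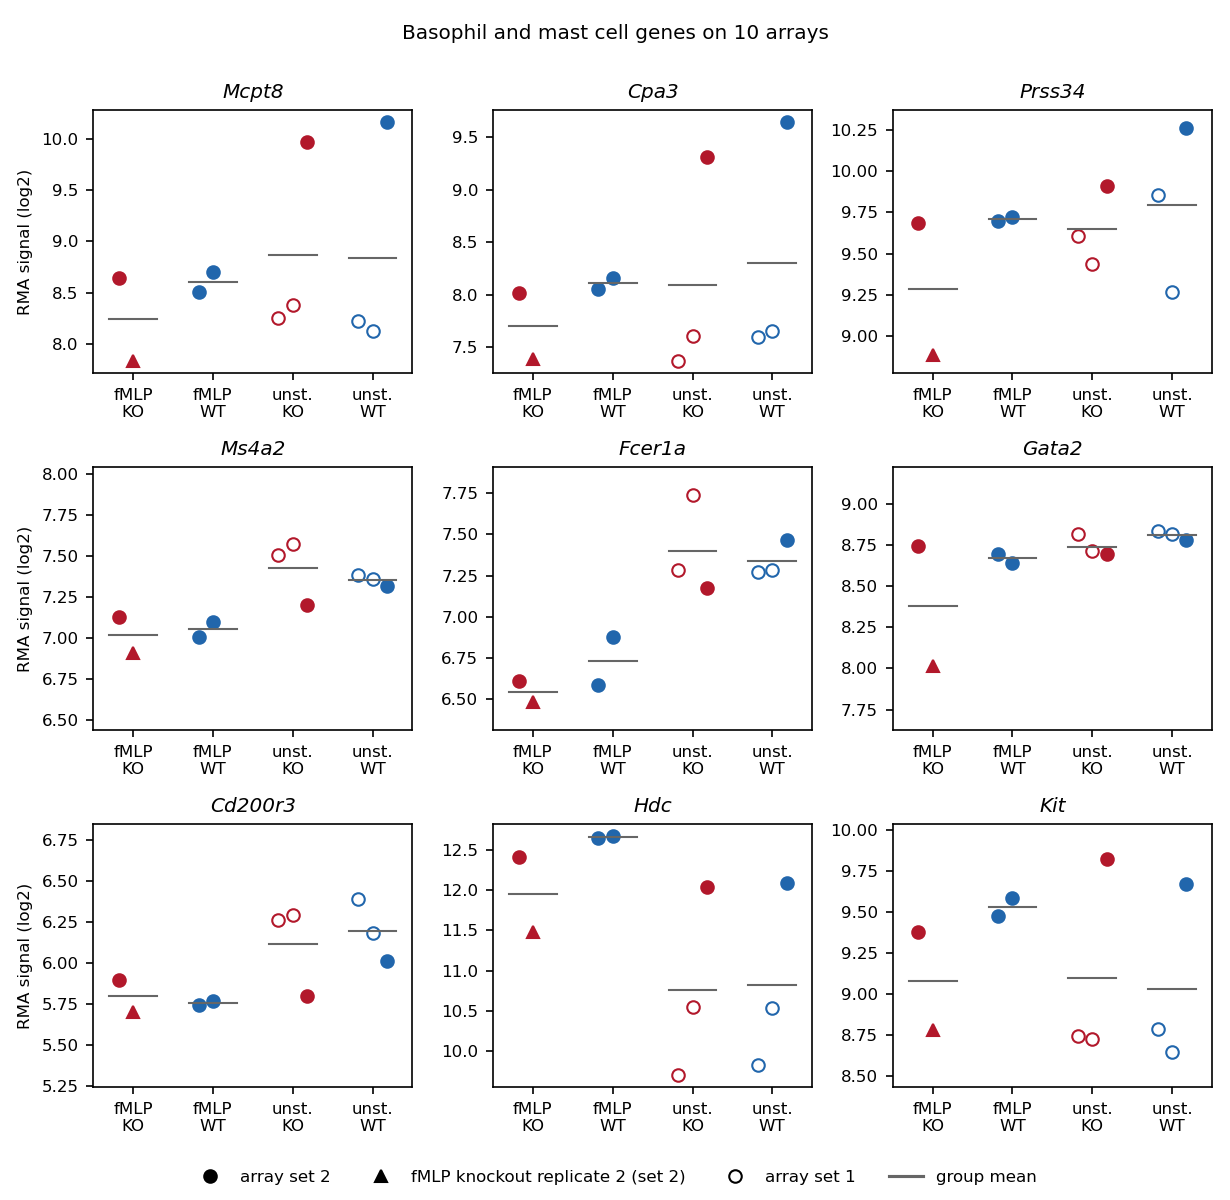
RMA signal (log2) of the 9 basophil and mast cell genes on each of the 10 arrays, by group (unst., unstimulated; KO, Lcn2 knockout; WT, wild type), with the group mean as a line; vertical axes differ between genes. For Mcpt8 and Cpa3 the unstimulated replicate 3 arrays stand above all others, while the fMLP arrays lie near unstimulated replicates 1 and 2.

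Mcpt8 encodes mast cell protease 8, a granule serine protease of basophils. Its signal was 8.65 and 7.84 in fMLP knockout samples, 8.51 and 8.70 in fMLP wild type samples, 8.26, 8.38 and 9.96 in unstimulated knockout samples and 8.23, 8.12 and 10.16 in unstimulated wild type samples. The 4 fMLP arrays lay below both unstimulated replicate 3 arrays without overlap, and fMLP knockout replicate 2 was the lowest of all 10. The mean was 8.42 ± 0.40 over the fMLP arrays (SD, n = 4) and 10.06 ± 0.14 over unstimulated replicate 3 (SD, n = 2), a difference of -1.64 on the log2 scale, or -1.44 without fMLP knockout replicate 2. By genotype the difference was -1.72 in knockout and -1.56 in wild type samples, each set against 1 unstimulated array. The probe set stood at percentiles 45.9 to 64.2 on the fMLP arrays, 83.0 and 85.0 on unstimulated replicate 3, and 42.9 to 51.0 on unstimulated replicates 1 and 2. Its rank on the fMLP arrays thus lay within or above that of unstimulated replicates 1 and 2, not below it.

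Cpa3, carboxypeptidase A3, trims peptides in the granule and is abundant in mast cells and basophils. It read 8.02 and 7.39 in fMLP knockout samples, 8.06 and 8.16 in fMLP wild type samples, 7.37, 7.60 and 9.31 in unstimulated knockout samples and 7.60, 7.65 and 9.65 in unstimulated wild type samples. As with Mcpt8, both replicate 3 arrays were high, and no fMLP array reached them. The mean was 7.91 ± 0.35 over the fMLP arrays (SD, n = 4) and 9.48 ± 0.24 over unstimulated replicate 3 (SD, n = 2), a difference of -1.57, or -1.40 without fMLP knockout replicate 2. Percentiles were 36.6 to 53.8 on the fMLP arrays, 74.8 and 79.4 on unstimulated replicate 3 and 23.7 to 29.8 on unstimulated replicates 1 and 2. All 4 fMLP arrays therefore ranked Cpa3 below the replicate 3 arrays and above the other unstimulated arrays.

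Prss34, a basophil tryptase-like protease known in the mouse as mMCP-11, varied less over the arrays. It read 9.69 and 8.88 in fMLP knockout samples, 9.70 and 9.72 in fMLP wild type samples, 9.61, 9.44 and 9.91 in unstimulated knockout samples and 9.85, 9.26 and 10.26 in unstimulated wild type samples. The fMLP arrays lay below both replicate 3 arrays, by -0.59 on average and by -0.39 without fMLP knockout replicate 2. In percentile they overlapped unstimulated replicates 1 and 2, at 68.7 to 79.4 on the fMLP arrays and 79.0 to 89.8 on the others. The mean gap between replicate 3 and replicates 1 and 2 was -0.29 percentile points for Prss34.

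Ranked from the lowest among all 19938 genes by the difference between the fMLP arrays and unstimulated replicate 3, Mcpt8 stood at place 11, Cpa3 at 12, Fcer1a at 254, Prss34 at 406 and Kit at 900. Ms4a2 followed at place 2880, Gata2 at 3048, Cd200r3 at 5344 and Hdc at 17320. These places are a description, since this contrast chose the members.

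**Figure D2:**
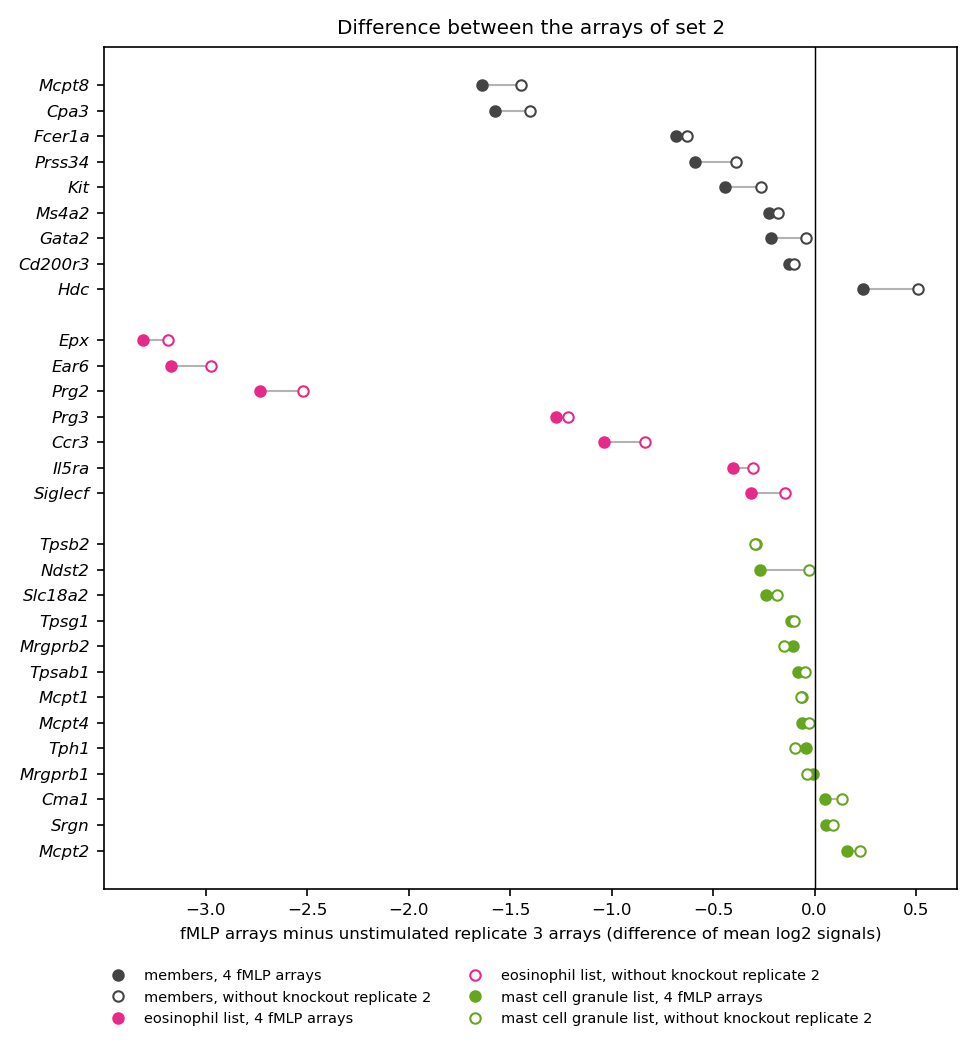
Difference of mean log2 signal between the fMLP arrays and the 2 unstimulated replicate 3 arrays, for the 9 members and for the eosinophil and mast cell granule lists; filled points use 4 fMLP arrays and open points leave out fMLP knockout replicate 2. Mcpt8 (-1.64) and Cpa3 (-1.57) lie far left of the other members, Hdc (0.24) lies right of 0, and all 13 mast cell granule genes lie within 0.3 of 0.

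Hdc, histidine decarboxylase, makes histamine, and in mouse marrow it is also expressed by immature myeloid cells, so it is not specific to basophils and mast cells. It read 12.41 and 11.48 in fMLP knockout samples, 12.65 and 12.67 in fMLP wild type samples, 9.70, 10.54 and 12.04 in unstimulated knockout samples and 9.82, 10.53 and 12.09 in unstimulated wild type samples. Of the 4 fMLP arrays, 3 were above both replicate 3 arrays, and fMLP knockout replicate 2 was below them. The difference from replicate 3 was 0.24, or 0.51 without fMLP knockout replicate 2, and its sign depended on genotype through that array: -0.10 in knockout and 0.57 in wild type samples. The percentile was 96.2 to 98.5 on the fMLP arrays, 97.0 and 97.1 on replicate 3 and 87.9 to 94.1 on replicates 1 and 2. Hdc was thus among the top ranks of every array of set 2 and lower in rank on every array of set 1.

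The high-affinity IgE receptor is represented by its IgE-binding alpha chain, Fcer1a, and its signal-amplifying beta chain, Ms4a2. Fcer1a read 6.61 and 6.48 in fMLP knockout samples, 6.59 and 6.88 in fMLP wild type samples, 7.28, 7.74 and 7.17 in unstimulated knockout samples and 7.27, 7.29 and 7.46 in unstimulated wild type samples. All 4 fMLP arrays lay below all 6 unstimulated arrays in signal, and the difference from replicate 3 was -0.68, or -0.63 without fMLP knockout replicate 2. In percentile, however, the fMLP arrays (20.9 to 26.4) overlapped unstimulated replicates 1 and 2 (22.2 to 31.1). Replicate 3 (31.2 and 37.7) ranked above both, though knockout replicate 3 (31.2) barely exceeded unstimulated knockout replicate 2 (31.1). Ms4a2 read 7.13 and 6.91 in fMLP knockout samples, 7.01 and 7.10 in fMLP wild type samples, 7.50, 7.57 and 7.20 in unstimulated knockout samples and 7.38, 7.36 and 7.32 in unstimulated wild type samples. Its fMLP arrays also lay below all unstimulated ones in signal, by -0.22 from replicate 3, yet ranked between the sets, at percentiles 27.5 to 30.6 on the fMLP arrays, 31.8 and 34.4 on replicate 3 and 23.7 to 27.1 on replicates 1 and 2.

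Kit, the stem cell factor receptor of mast cells and progenitors, read 9.38 and 8.78 in fMLP knockout samples, 9.48 and 9.59 in fMLP wild type samples, 8.75, 8.73 and 9.83 in unstimulated knockout samples and 8.79, 8.65 and 9.67 in unstimulated wild type samples. It was below replicate 3 by -0.44, or by -0.27 without fMLP knockout replicate 2. The genotypes differed in size here: -0.75 in knockout and -0.14 in wild type samples, with -0.45 in knockout replicate 1 alone. Percentiles were 66.7 to 77.7 on the fMLP arrays, 79.7 and 81.6 on replicate 3 and 60.7 to 65.1 on replicates 1 and 2, so Kit lay between the 2 kinds of unstimulated array, as Cpa3 did. Cd200r3, an activating receptor of basophils and mast cells in the mouse, read 5.70 to 5.90 on the fMLP arrays, 5.80 and 6.01 on replicate 3 and 6.18 to 6.39 on replicates 1 and 2. At percentiles 9.96 to 13.8 over all 10 arrays, it gave no separation of fMLP from unstimulated samples in rank.

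Gata2, the transcription factor that basophil and mast cell development requires, read 8.74 and 8.01 in fMLP knockout samples, 8.70 and 8.64 in fMLP wild type samples, 8.82, 8.71 and 8.70 in unstimulated knockout samples and 8.84, 8.82 and 8.78 in unstimulated wild type samples. With fMLP knockout replicate 2 set aside, its 9 remaining signals spanned 8.64 to 8.84. The difference from replicate 3 was -0.21, or -0.04 without that array, and replicate 3 stood -0.17 percentile points from replicates 1 and 2. Gata2 and the 2 proteases thus varied differently over the arrays.

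**Figure D3:**
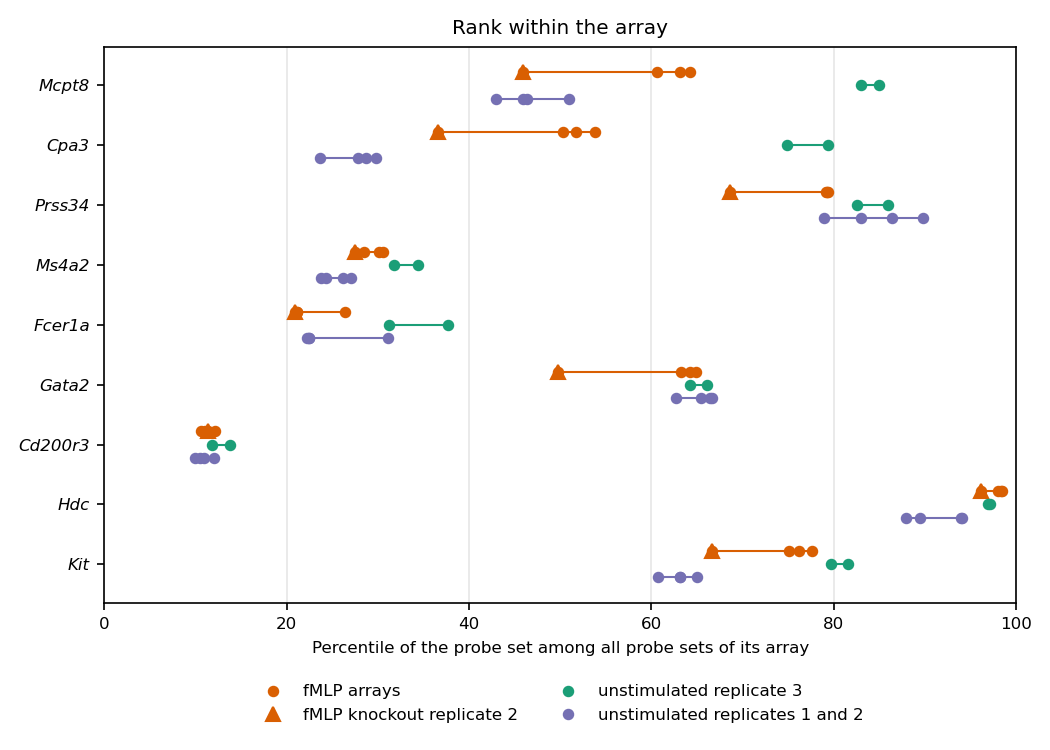
Percentile of each member's probe set among all 35556 probe sets of the same array, for the 4 fMLP arrays, the 2 unstimulated replicate 3 arrays and the 4 arrays of unstimulated replicates 1 and 2. Cpa3 and Kit on the fMLP arrays lie between the 2 kinds of unstimulated array, while for Gata2 and Cd200r3 the 3 kinds overlap.

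Counted over the set, 6 of 9 members (Mcpt8, Cpa3, Prss34, Ms4a2, Fcer1a and Kit) had all 4 fMLP arrays below both replicate 3 arrays, and 18.5% of all genes did. Since this contrast chose the members, nothing is read from that count. The median difference was -0.44 with 8 of 9 below 0, against -0.02 over all 19938 genes with 53.7% below 0. Without fMLP knockout replicate 2 the same 6 members lay below (27.7% of all genes), and Hdc lay above (22.8%). In percentile, 4 members (Cpa3, Ms4a2, Hdc and Kit) had all 4 fMLP arrays above unstimulated replicates 1 and 2 (33.6% of all genes) and 0 had all below (31.2%). With fMLP knockout replicate 2 left out, Mcpt8 joined them, for 5 above (37.8%) and 0 below (39.7%). The 3 members Cpa3, Ms4a2 and Kit met both conditions, below replicate 3 and above replicates 1 and 2, as 7.63% of all genes did, and 4 did without fMLP knockout replicate 2 (9.85%). None was below replicate 3 in signal and also below replicates 1 and 2 in percentile, a pattern that 6.74% of all genes had. The mean percentile gap between the fMLP arrays and replicates 1 and 2 ran from -7.93 points for Prss34 to 20.6 for Cpa3.

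The 2 kinds of unstimulated array ranked many genes apart, these members and others alike. Both replicate 3 arrays ranked Mcpt8, Cpa3, Ms4a2, Fcer1a, Hdc and Kit above all 4 arrays of replicates 1 and 2, which makes 6 of 9 members against 38.4% of all genes, and 0 members below them all (40% of all genes). For Fcer1a the margin was narrow, at percentile 31.2 on unstimulated knockout replicate 3 and 31.1 on unstimulated knockout replicate 2. The members were chosen with the difference between fMLP and replicate 3 already seen, so nothing is read from these counts. The gaps were 49.6 percentile points for Cpa3, 37.4 for Mcpt8 and 17.6 for Kit. Of all genes, 98.6% had a smaller gap than Cpa3, 95.3% a smaller one than Mcpt8 and 82.7% a smaller one than Kit. For Fcer1a, Ms4a2 and Hdc the shares were 74.2%, 70.9% and 67.5%. For Mcpt8 the fMLP arrays exceeded replicates 1 and 2 by 11.9 points on average.

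Across all tested genes, limma (all 10 arrays, group coefficients and array set as a block, Benjamini-Hochberg adjustment) called 48 genes (0.341%) between fMLP and unstimulated cells averaged over genotype, 27 lower (0.192% of those tested) and 21 higher (0.149%). In this fit the fMLP difference rests on the same 2 replicate 3 arrays. No call of a member is given in it. With the replicate number as a block in place of the array set, the contrast compares fMLP with replicates 1 and 2, across array sets, and the difference was 0.17 for Mcpt8, 0.35 for Cpa3 and 0.58 for Kit. The count of calls without either replicate 3 array was 0, with 695 genes at an unadjusted p under 0.05 without the wild type array and 740 without the knockout array.

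Loss of Lcn2 gave no called difference in any member. In unstimulated cells, the fit called 1 of 14070 genes (0.00711%), Lcn2 itself, and 75 genes had an unadjusted p under 0.05. By chance 703.5 would be expected at that threshold, so p-values in this comparison ran high. The lack of a call does not show equal expression. Mcpt8 averaged 8.87 ± 0.95 in knockout and 8.84 ± 1.15 in wild type samples (SD, n = 3 each), a difference of 0.03 with a 95% interval of -0.43 to 0.48. The spread within each genotype comes from replicate 3 and is taken up by the array set in the fit. Cpa3 differed by -0.20 (-0.58 to 0.17), Prss34 by -0.14 (-0.66 to 0.38), Gata2 by -0.07 (-0.46 to 0.32), Hdc by -0.05 (-0.75 to 0.65) and Kit by 0.07 (-0.28 to 0.41), each with a limma adjusted p of 1. The 3 members under the filter, fitted without it, differed by 0.07 for Ms4a2, 0.06 for Fcer1a and -0.08 for Cd200r3, also with limma adjusted p of 1. Knockout and wild type arrays overlapped for all 9 members. Over all genes, 0.14% had the 3 knockout arrays below the 3 wild type arrays, and 0.471% had them above.

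The direction in unstimulated cells was not the same in both array sets. Between replicate 3 arrays, knockout minus wild type was -0.33 for Cpa3, -0.35 for Prss34, -0.29 for Fcer1a, -0.20 for Mcpt8 and 0.16 for Kit, and 8 of 9 members were below 0, against 42.9% of all genes, on 1 array a genotype. Between replicates 1 and 2 it was -0.14 for Cpa3, -0.04 for Prss34, 0.23 for Fcer1a, 0.14 for Mcpt8 and 0.02 for Kit, with 5 of 9 members below 0 and 43.3% of all genes. The signs of Mcpt8, Ms4a2 and Fcer1a were opposite in the 2 sets. In set 1 alone, Gata2 had both knockout arrays below both wild type arrays (11.5% of all genes), and Mcpt8 and Ms4a2 had them above (17.4%).

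After fMLP, the fit again called only Lcn2 (0.00711% of 14070 genes), with 1182 genes at an unadjusted p under 0.05, and called 0 with the replicate block. The member with the smallest p was Kit, which averaged 9.08 ± 0.42 in knockout and 9.53 ± 0.08 in wild type samples (SD, n = 2 each). Its difference was -0.45 (95% interval -0.88 to -0.03, limma adjusted p = 0.416). Hdc averaged 11.95 ± 0.66 in knockout and 12.66 ± 0.02 in wild type samples (SD, n = 2 each), a difference of -0.72 (-1.57 to 0.14, limma adjusted p = 0.416). Cpa3 differed by -0.41, Mcpt8 by -0.36, Prss34 by -0.42 and Gata2 by -0.29, with limma adjusted p of 0.416 to 0.458. Ms4a2 differed by -0.03, Fcer1a by -0.19 and Cd200r3 by 0.04. In all, 4 members (Cpa3, Prss34, Hdc and Kit) had both knockout arrays below both wild type arrays, and 21.3% of all genes did, while 0 members had them above (20.1%). Exact permutation of 2 arrays against 2 could give no p below 0.333.

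Fewer of these differences are seen in fMLP knockout replicate 1. Knockout replicate 1 minus the wild type mean was 0.04 for Mcpt8, -0.09 for Cpa3, -0.02 for Prss34, 0.07 for Gata2, -0.25 for Hdc and -0.15 for Kit. The members' median was -0.02 with 5 of 9 below 0 (47.6% of all genes), against -0.36 with 8 of 9 below 0 over both knockout arrays (50.3% of all genes). On knockout replicate 2, the array with high neuronal genes, all 9 members had their lowest value among the 4 fMLP arrays, as 44.9% of all genes did. With knockout replicate 1 left out, replicate 2 alone stood for the group. Knockout minus wild type was then -0.77 for Mcpt8, -0.72 for Cpa3, -0.82 for Prss34, -0.65 for Gata2, -1.18 for Hdc and -0.75 for Kit. The summed log2 signal of the 4 neuron markers was 48.8 on knockout replicate 2 and 29.7 at the lowest of the fMLP arrays. Its part in the members' lower values was not tested.

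**Figure D4:**
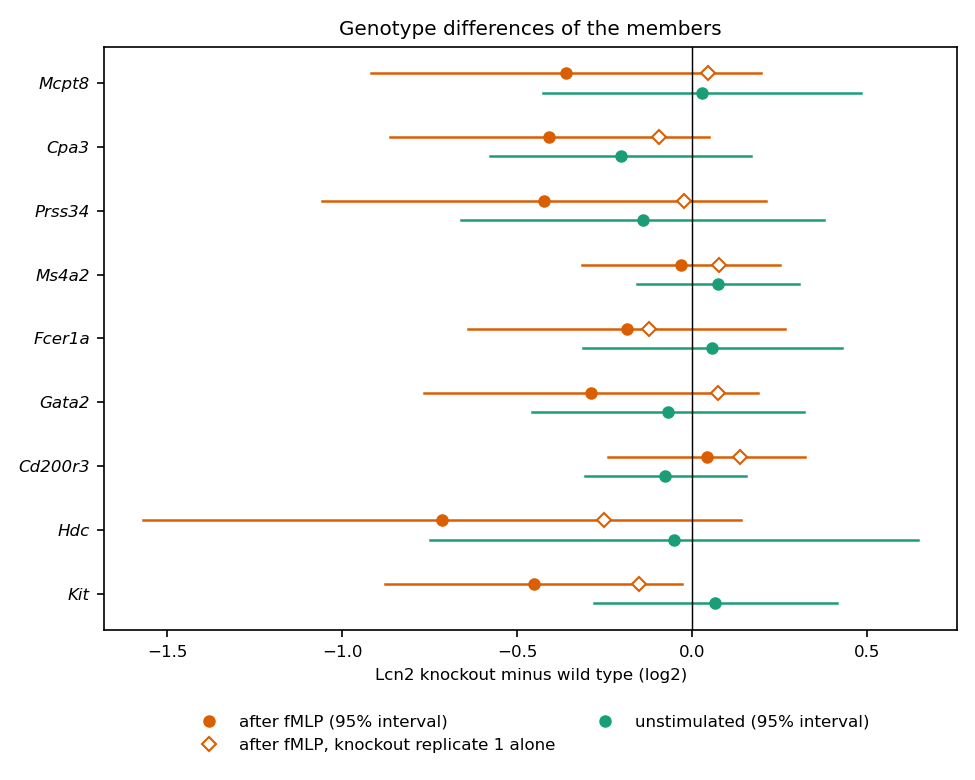
Difference of mean log2 signal between Lcn2 knockout and wild type samples for the 9 members, after fMLP and unstimulated, with 95% intervals from the fit (for Ms4a2, Fcer1a and Cd200r3 from the fit without the filter); open diamonds are fMLP knockout replicate 1 alone. The interval of Kit after fMLP (-0.88 to -0.03) is the only one that leaves out 0, and its adjusted p was 0.416.

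The fMLP response was not shown to depend on genotype for any member. The fit called 0 of 14070 genes for the interaction (0%), with 258 at an unadjusted p under 0.05. By chance 703.5 would be expected there, and the lack of a call does not show equal responses. The difference of responses was -0.66 for Hdc (95% interval -1.77 to 0.44), -0.52 for Kit (-1.07 to 0.03), -0.39 for Mcpt8 (-1.11 to 0.33), -0.28 for Prss34 (-1.10 to 0.54), -0.22 for Gata2 (-0.83 to 0.39) and -0.20 for Cpa3 (-0.79 to 0.38). Their limma adjusted p lay between 0.776 and 0.809.

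Other genes of the basophil and mast cell program gave smaller differences than Mcpt8 and Cpa3. Of 13 measured mast cell granule genes, 3 had all fMLP arrays below replicate 3, and 18.5% of all genes did. The median difference was -0.06. As this and the following lists were chosen with earlier results of these data known, no call in the fMLP contrast is given for their genes. The mast cell granule list includes the chymases and tryptases that define connective tissue and mucosal mast cells. On the fMLP and replicate 3 arrays, Mcpt1 stood at percentiles 10.7 to 12.2, Mcpt2 at 8.31 to 12.3, Mcpt4 at 10.1 to 13.6 and Cma1 at 23.4 to 28.6. The tryptases stood at 23.9 to 26.3 for Tpsab1, 42.7 to 49.99 for Tpsb2 and 49.2 to 55.3 for Tpsg1. Mrgprb1 and Mrgprb2, the second a mast cell receptor for basic peptides, stood at 7.93 to 11.9 and 6.68 to 9.66, Tph1, which starts serotonin synthesis, at 25.8 to 30.5, and Slc18a2, the transporter that loads histamine into granules, at 36.9 to 45.3. Ndst2, which sulfates heparin, stood at 64.2 to 79.9, and the proteoglycan core Srgn, which neutrophils also use, at 99.7 to 99.8. The list's summed log2 signal was 94.2 to 96.3 on the fMLP arrays and 96.3 to 96.6 on replicate 3. Its median percentile was 23.9 to 26.2 on the fMLP arrays and 24.9 and 26.3 on replicate 3. On replicates 1 and 2 it was 30.4 to 32.5.

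IgE receptor signalling genes, most of which neutrophils also express, had a median difference of -0.04 over 13 measured genes, and of 0.21 without fMLP knockout replicate 2. Of the 13, 1 had all fMLP arrays below replicate 3 (18.5% of all genes) and 3 had them all above (11.1%). The values with the smallest p were 0.55 for Plcg1, 0.67 for Lat, 0.48 for Fyn and -0.74 for Btk. Fcer1g, the gamma chain that IgE and IgG receptors share, differed by -0.17, at percentiles 99.0 to 99.5 on all arrays.

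Basophil receptors and cytokines had 7 of 16 measured genes below replicate 3 on all fMLP arrays, against 18.5% of all genes. Their median was -0.22, or -0.11 without fMLP knockout replicate 2. Il18r1 and Il18rap, the 2 chains of the interleukin 18 receptor, differed by -0.62 and -0.51, Ptgdr2, a prostaglandin D2 receptor of basophils and eosinophils, by -0.22, and Crlf2, a chain of the TSLP receptor, by 0.39. The histamine and lipid mediator genes had 2 of 10 below (18.5%) and a median of -0.08. Hnmt, which inactivates histamine, differed by -0.44, and Ptgs2, an inducible prostaglandin synthase, by 0.91. The transcription factors that work with Gata2 had 1 of 11 below (18.5%) and a median of -0.02. Without fMLP knockout replicate 2 the median was 0.13. Cebpa differed by -0.43 and Gata1 by 0.46.

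For the genotype, 0 genes of these 5 lists were called in unstimulated cells, after fMLP or in the interaction, and the smallest limma adjusted p were 1, 0.416 and 0.776. After fMLP, knockout minus wild type was -0.72 for Csf2rb, the shared beta chain of the IL-3 receptor, -0.69 for Il18rap, -0.67 for Vav1, -0.56 for Hnmt and 0.38 for Plcg1. In knockout replicate 1 alone it was -0.22 for Csf2rb, -0.14 for Il18rap, -0.10 for Vav1, -0.33 for Hnmt and 0.18 for Plcg1.

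Markers of eosinophils, another granulocyte of the marrow, moved with Mcpt8 and Cpa3. All 7 measured eosinophil genes had the fMLP arrays below replicate 3, against 18.5% of all genes, with a median of -1.27. Epx, eosinophil peroxidase, read 8.04 and 7.49 in fMLP knockout samples, 7.80 and 8.08 in fMLP wild type samples, 8.56, 8.19 and 11.21 in unstimulated knockout samples and 8.68, 8.23 and 11.11 in unstimulated wild type samples. Its difference from replicate 3 was -3.31, and that of Prg3, a homolog of the major basic protein, -1.27. Both passed the filter only through unstimulated arrays. Ear6, an eosinophil ribonuclease, differed by -3.17 and Prg2, the major basic protein, by -2.73. The list was chosen with earlier results of these data known, so no call of its genes in this contrast is given. The list's summed log2 signal was 54.8 to 60.1 on the fMLP arrays and 70.2 to 70.3 on replicate 3. Its median percentile was 38.6 to 55.2 on the fMLP arrays and 75.1 and 77.0 on replicate 3. On replicates 1 and 2 it was 45.8 to 61.5. For 4 of the 7, the fMLP arrays lay below replicate 3 in signal and also below replicates 1 and 2 in percentile. That held for 6.74% of all genes and 0 of the 9 members, so nothing about the members is read from it.

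Monocyte and progenitor markers were checked for the same reason. Of 8 measured monocyte genes, 6 had the fMLP arrays below replicate 3, against 18.5% of all genes. Fn1 differed by -2.12, F13a1 by -1.74 and Ccr2 by -2.08, and Ccr2 passed the filter only through the 2 replicate 3 arrays. No call of these genes in this contrast is given, as for the eosinophil list. The summed monocyte signal was 67.5 to 74.4 on the fMLP arrays and 79.3 to 82.7 on replicate 3. The list's median percentile was 58.5 to 73.8 on the fMLP arrays and 83.6 and 86.9 on replicate 3. On replicates 1 and 2 it was 58.9 to 64.2, so it was high on the same 2 arrays as Mcpt8 and Cpa3. Of 9 measured progenitor genes, 3 were below (18.5%), with Cd34, a surface protein of progenitors and mast cells, at -0.78. The part of eosinophils, monocytes or progenitors in the members' differences was not tested.

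The genes most like Mcpt8 were sought over the 6 arrays of set 2 among 1034 genes with an SD of at least 0.5. Cpa3 had a Pearson r of 0.996 with Mcpt8. Prss34, Kit, Gata2 and Hdc varied less than this minimum and were not part of the search, and their r was 0.882, 0.831, 0.668 and 0.060 in that order. Among other genes, r was highest for Ms4a6c (0.994), a monocyte membrane protein, then Snora31 (0.992), 0610009B22Rik (0.991), Zbtb26 (0.988), Prg2 (0.985), Fam98b (0.984), Sptssa (0.983) and Tm9sf3 (0.982). These 6 arrays fall into the 2 replicate 3 arrays, 3 fMLP arrays and fMLP knockout replicate 2, so r here describes a gap between clusters and carries no p. Mcpt8 and Cpa3 shared that gap with Prg2 and Ms4a6c, while Hdc did not.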

How the data were processed

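The deposited log2 values are RMA signals that the authors made in Affymetrix Expression Console, per the submitters' processing notes. The log base is not stated and was taken as log2 from the range, and the sources used here do not say if the arrays went through RMA together. Of 35556 probe sets, 21789 name 1 gene, 1621 several and 12146 none. For each gene the probe set with the highest mean was kept (999 genes have several). Genes with at least 2 arrays above the median of all values were fitted with limma 3.58.1 in R 4.3.3: 4 group coefficients plus the array set as a fixed block (5 residual degrees of freedom), moderated variances, two-sided tests, Benjamini-Hochberg adjustment over 14070 genes, called below 0.05. An array belonged to set 1 if its interquartile range was under 2, and otherwise to set 2. A log2 difference is fMLP minus unstimulated, or knockout minus wild type. The number of arrays limits the precision: 3 against 3 can give no exact permutation p below 0.1. The scripts were tested on simulated data.

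Same-numbered unstimulated arrays deviated together from their group means (correlations of 0.949, 0.929 and 0.988 for replicates 1, 2 and 3), and same-numbered fMLP arrays hardly did (0.0598). Unstimulated replicates 1 and 2 share array set 1, so these correlations mix array set with replicate number. Within set 1, Hdc read 9.70 (knockout) and 9.82 (wild type) in replicate 1, and 10.54 and 10.53 in replicate 2. The main fit holds the array set and not the replicate number, so such a shared shift stays in its spread and widens its intervals. Alternatives were no array set, the replicate number as a block, no or a stricter filter (above 9.21), quantile normalization, median centring, the mean of probe sets, a variance trend with robust moderation, either array set alone, and leaving out each array. Named were all members, Lcn2, up to 4 genes with the smallest p of each list and any called, and the 8 genes most correlated with Mcpt8. Fcer1g, the mast cell markers given by percentile and the neuron, Y-linked and Xist probe sets were named outside this rule. The members and lists were chosen with earlier results of these data known. Of the lists, megakaryocyte, erythroid and B cell genes gave 0 calls in the genotype comparisons and the interaction. No call of a list gene in the fMLP contrast is given.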

Additional observations from a re-analysis of the deposited data

How the results depend on the processing

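Among the members, 0 of 122 values of the unstimulated genotype difference under the alternatives were called, and 5 had the opposite sign. After fMLP, 2 of 116 changed sign, and members were called only without fMLP knockout replicate 1, where replicate 2 alone stood for the group. The differences there were Mcpt8 -0.77, Cpa3 -0.72, Prss34 -0.82, Gata2 -0.65, Hdc -1.18 and Kit -0.75. Calls of members in the interaction arose only under the same setting. The fMLP difference reversed with the replicate block for Mcpt8 (0.17), Cpa3 (0.35) and Kit (0.58), because that block compares across array sets. Without the array set it was -0.43 for Mcpt8 and -0.29 for Cpa3, and 0.24 for Kit, whose sign turned there too. These members were chosen on this difference, and no test of it is given.

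Counts of called genes moved as follows. For the unstimulated genotype comparison the count was 0 with array set 2 alone, and 0 to 1 when 1 array was left out. After fMLP it was 0 with the replicate block, 0 with array set 2 alone, and 0 to 6401 when 1 array was left out. The 6401 arose without fMLP knockout replicate 1, where replicate 2 alone stands for its group and is assumed to vary like the other groups. The interaction gave 0 to 4924, the upper value under that same setting. The fMLP comparison, with 48 calls, gave 10 without the array set, 11758 with the replicate block, 77 with a variance trend and robust moderation, and 0 with array set 2 alone (886 at an unadjusted p under 0.05). It gave 0 to 4055 when 1 array was left out: 0 without either unstimulated replicate 3 array, 1428 without fMLP knockout replicate 2 and 4055 without fMLP knockout replicate 1. The replicate block changed no other call of a member's genotype difference. The precision is limited by 2 or 3 arrays a group, by signals of Ms4a2, Fcer1a and Cd200r3 near the low end of each array, and by an fMLP difference that rests on 2 unstimulated arrays.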
